A study of Mus musculus with 8 samples.

Results

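The interferon-induced transmembrane (Ifitm) genes encode small membrane proteins that share the CD225 domain. Ifitm1, Ifitm2, Ifitm3, Ifitm6, Ifitm7 and Ifitm10 were taken by their symbols and are 6 of the 56748 gene IDs in each count table. The Ifitm genes were picked for this description when the comparison of Mettl3-RNP with Pulsed cells was already known, including the lower Ifitm1 level after transfection of Mettl3 RNPs. The members were thus chosen by values of that comparison, which are given as a description with no test of the family.

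Bone marrow derived mast cells (BMMCs) were grown in vitro with IL-3 from whole bone marrow of young C57BL/6 mice, 4 of which supplied the 8 samples. In the Mettl3-RNP group (n = 4, labelled as Mettl3 KO) resting cells had been electroporated with ribonucleoproteins (RNPs) of Cas9 and guide RNAs that cut Mettl3, the catalytic subunit of the complex that writes N6-methyladenosine (m6A) on mRNA. In the Pulsed group (n = 4) the cells had been mock transfected and had received no RNP, so that the delivery of an RNP and the cut in Mettl3 cannot be told apart. The RNP-treated cells were sequenced in bulk with the untargeted cells that remained among them. Numbers 1 to 4 occur in both groups and were treated as pairs.

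Ifitm proteins are known as restriction factors, which hinder the fusion of enveloped viruses with cell membranes and are induced by type I and type II interferons in most cells. Ifitm1 sits mainly at the plasma membrane, whereas Ifitm2 and Ifitm3 carry a sorting signal that takes them to endosomes. Several members are expressed in haematopoietic and germ cells without added interferon.

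In GRCm39 the genes Ifitm2 (140534738 to 140536228, minus strand), Ifitm1 (140546316 to 140549743, plus strand), Ifitm3 (140589499 to 140591282, minus strand) and Ifitm6 (140595612 to 140597837, minus strand) lie next to each other on chromosome 7. Ifitm10 lies on the same chromosome at 141879574 to 141927546 (minus strand), outside this cluster. Ifitm7 lies on chromosome 16 at 13799557 to 13805108 (minus strand). The canonical transcripts of the members in the cluster have 2 exons each, that of Ifitm7 has 3 and that of Ifitm10 has 4.

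Interferon acts on such genes through elements that repeat GAAA after a gap of 2 bases, bound by IRF and STAT factors. The stretches from 100 bases before to 30 bases after the RefSeq start (build GRCm38.p6) of the 3 most abundant members are shown because they differ in this repeat, which is in capitals:
Ifitm1, chr7:140967976-140968105, plus strand: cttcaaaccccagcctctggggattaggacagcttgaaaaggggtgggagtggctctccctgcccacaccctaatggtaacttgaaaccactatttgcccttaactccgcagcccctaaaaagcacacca
Ifitm2, chr7:140955932-140956061, minus strand: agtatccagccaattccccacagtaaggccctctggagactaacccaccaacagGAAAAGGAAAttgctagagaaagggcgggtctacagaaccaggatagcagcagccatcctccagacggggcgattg
Ifitm3, chr7:141010715-141010844, minus strand: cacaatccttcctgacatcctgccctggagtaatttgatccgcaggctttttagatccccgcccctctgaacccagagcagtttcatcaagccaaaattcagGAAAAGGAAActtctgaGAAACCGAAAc

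All 6 members had an entry among the RefSeq promoters. In the window of 300 bases, searched on both strands, the repeat (GAAA, any 2 bases, GAAA) was present for 2 of the 6 members, against 3.44% of 32851 promoters of the mouse. Ifitm2 had it from 46 to 37 bases before the start. Ifitm3 had it at bases 3 to 12 and at bases 20 to 29 after the start. TTCNNNGAA, the form bound by STAT dimers, was found for Ifitm3 (bases 14 to 22, overlapping the element at 20 to 29) and Ifitm6, against 8.3% of all promoters. No match of either form was found in these windows for Ifitm1, Ifitm7 and Ifitm10. The printed Ifitm1 stretch lies in GRCm39 at 140547889 to 140548018, inside the gene, which begins at 140546316. That first annotated start of Ifitm1 was not searched, and neither were starts of other members outside their RefSeq windows.

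The libraries held 32643260 to 45324826 counts, with at least 1 count for 21871 to 28483 genes and the highest number in Mettl3-RNP 2. Mettl3 itself was at 12.3, 9.17, 4.88 and 9.19 CPM (counts scaled to 1000000 per library) in Mettl3-RNP 1 to 4 and at 25.9, 24.5, 11.1 and 26.5 CPM in Pulsed 1 to 4. Mettl3 fell in each of the 4 pairs (log2 fold change -1.30, SE 0.109, adjusted p = 0.00543 by the quasi-likelihood test of edgeR), although the groups overlapped because Pulsed 3 was low. Without the replicate block neither Mettl3 (log2 fold change -1.31, adjusted p = 0.744) nor any other gene was called.

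Ifitm1 was by far the most abundant member. The Mettl3-RNP libraries 1 to 4 held 1372, 1561, 1613 and 1003 CPM, and the Pulsed libraries 1677, 1986, 2651 and 2068 CPM. The groups did not overlap, although Mettl3-RNP 3 and Pulsed 1 lay close to each other. The mean was 1387 ± 277 CPM (SD, n = 4) in the Mettl3-RNP group and 2095 ± 407 CPM (SD, n = 4) in the Pulsed group. Ifitm1 was lower in 4 of 4 pairs, by 0.29, 0.35, 0.72 and 1.04 on the log2 scale, and the fitted level after Mettl3 RNPs was 66.0% of that in Pulsed cells (log2 fold change -0.60, SE 0.127). The size of the difference thus varied between pairs, and pair 4 had the largest one. In bulk RNA, fewer cells with Ifitm1 and less Ifitm1 RNA per cell cannot be told apart.

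Ifitm2, an endosomal member, was measured at 238, 263, 327 and 204 CPM in Mettl3-RNP 1 to 4 and at 264, 273, 460 and 272 CPM in Pulsed 1 to 4. The groups overlapped, with Pulsed 3 far above the other Pulsed libraries. Its values were below those of the paired control in 4 of 4 pairs, but the differences in pairs 1 and 2 were small, -0.15 and -0.06 on the log2 scale, against -0.49 and -0.41 in pairs 3 and 4. The fitted log2 fold change was -0.28 (SE 0.0898).

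Ifitm3, the best studied antiviral member, was at 35.2, 68.5, 43.1 and 32.0 CPM in Mettl3-RNP 1 to 4 and at 46.2, 59.7, 56.1 and 38.3 CPM in Pulsed 1 to 4. The groups overlapped. Values were below the control in 3 of 4 pairs, and pair 2 went the other way (0.20 on the log2 scale), with the highest Ifitm3 level of the 8 libraries in Mettl3-RNP 2. The fitted log2 fold change was -0.21 (SE 0.108).

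**Figure D1:**
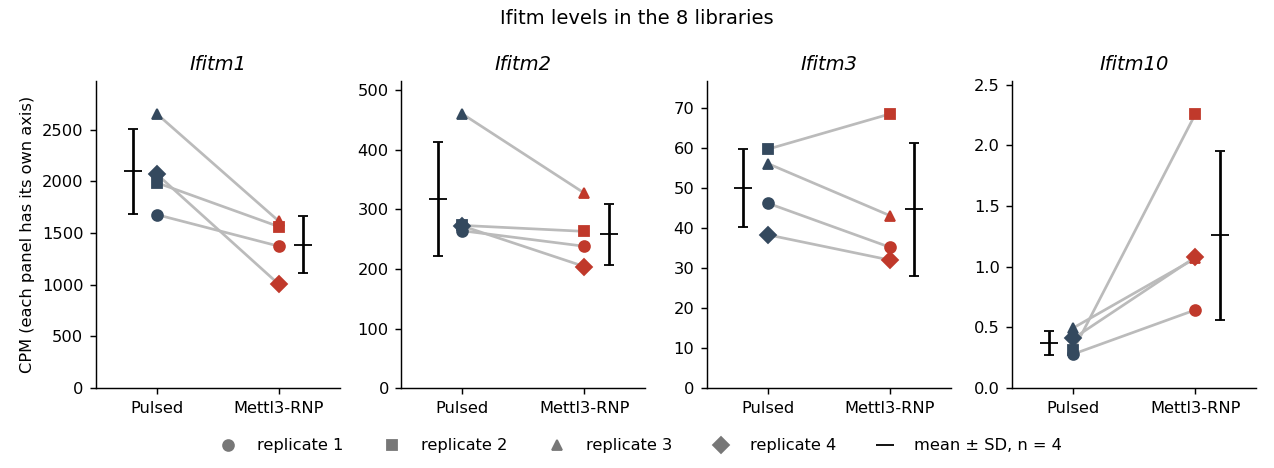
Levels of Ifitm1, Ifitm2, Ifitm3 and Ifitm10 in CPM on linear axes that start at 0, with lines joining libraries of the same number and black bars for the mean and SD (n = 4). Only Ifitm1 (1003 to 1613 against 1677 to 2651 CPM) and Ifitm10 (0.645 to 2.26 against 0.281 to 0.497 CPM) have groups that do not overlap.

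Ifitm10, a member outside the cluster whose function is little known, had few counts: 24, 97, 32 and 38 in Mettl3-RNP 1 to 4 and 10, 12, 20 and 15 in Pulsed 1 to 4. In CPM these are 0.645, 2.26, 1.07 and 1.08 against 0.281, 0.313, 0.497 and 0.410. Every Mettl3-RNP library lay above every Pulsed library, and Mettl3-RNP 2 was the highest. The fitted log2 fold change was 1.63 (SE 0.439), with pair differences of 1.06, 2.66, 1.03 and 1.29. Without pair 2 it was 1.22.

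Ifitm6 and Ifitm7 were at the limit of detection. Ifitm6 had 1 count in Mettl3-RNP 2 and 0 counts in the other libraries. Ifitm7 had 1 count in each Mettl3-RNP library and in Pulsed 4, and 0 counts in Pulsed 1 to 3. Both stayed below the limit that a count of 0 allows (3 counts per library, 0.0662 to 0.0919 CPM before scaling), so no difference could be read from them at this depth.

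Of the 6 members, 4 had enough counts to be tested, and 1 of them, Ifitm1, was called at an adjusted p of 0.05 or less by edgeR, the tool meant by a call where no other is named. DESeq2 called Ifitm1 and Ifitm10. In that comparison edgeR called 3.74% of the 14942 genes tested, 1.39% as lower and 2.35% as higher in Mettl3-RNP cells, and DESeq2 called 9.7%. An unadjusted p under 0.05 was found for 22.5% of them by edgeR. Groups that did not overlap were seen for 2 of the 4 members, 1 in each direction, against 1.2% of the genes tested for the lower and 2.03% for the higher direction. Because the contrast was known when the family was picked, nothing is read from these counts. The Ifitm1 call was near its threshold, and it was lost without the replicate block, with scaling to total counts, and without pair 2, pair 3 or pair 4.

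**Figure D2:**
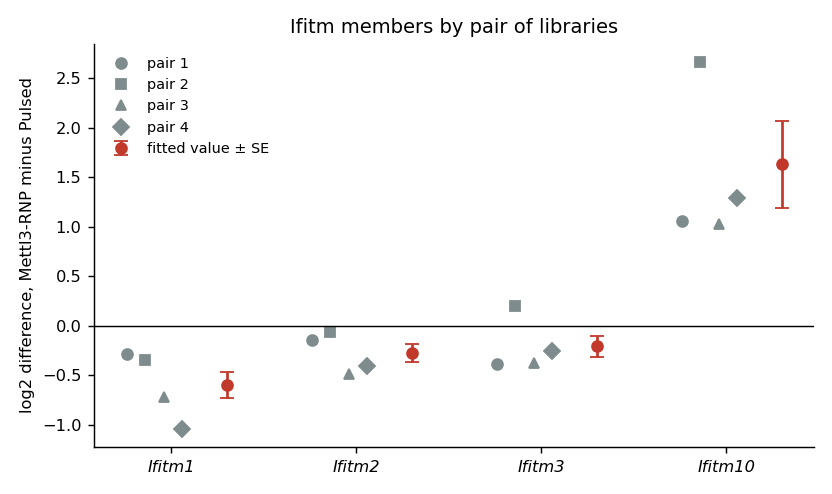
Log2 difference between Mettl3-RNP and Pulsed libraries for each pair (grey) and the fitted log2 fold change with its SE (red) of the 4 tested members. Ifitm1 lies below 0 in 4 of 4 pairs with the largest difference in pair 4 (-1.04), Ifitm3 lies above 0 in pair 2, and Ifitm10 lies above 0 in 4 of 4 pairs.

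Levels of different genes were compared per kb of the canonical transcript. In the Pulsed group the mean level was 2809 ± 545 CPM per kb for Ifitm1, 320 ± 96.2 for Ifitm2, 39.2 ± 7.61 for Ifitm3 and 0.110 ± 0.0287 for Ifitm10 (SD, n = 4). This order held in 8 of 8 libraries, with Ifitm1 at 6.51 to 10.1 times the level of Ifitm2 and Ifitm2 at 4.94 to 10.6 times the level of Ifitm3. Among the 14942 genes tested, the level per kb of Ifitm1 ranked between 11 and 26 from the top in every library. Ifitm2 ranked between 145 and 232, and Ifitm3 between 1078 and 2477. Ifitm7 and Ifitm6, at the bottom of the order, could not be separated.

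In each library Ifitm1 made up 80.9% to 87.0% of the counts of the family, Ifitm2 11.4% to 16.5% and Ifitm3 1.61% to 3.62%. The summed level of the family was 1240 to 1984 CPM in Mettl3-RNP libraries and 1987 to 3167 CPM in Pulsed libraries, and most of it was Ifitm1. The ratio of Ifitm1 to Ifitm2 in CPM was 5.77, 5.94, 4.94 and 4.91 in Mettl3-RNP 1 to 4 and 6.36, 7.26, 5.77 and 7.62 in Pulsed 1 to 4. It was smaller than in the paired control in each pair. The ratio of Ifitm1 to Ifitm3 was 39.0, 22.8, 37.4 and 31.3 against 36.3, 33.3, 47.2 and 54.1, and it was larger in pair 1.

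The difference between replicate numbers was not used to choose the members and was tested for all genes. By the quasi-likelihood F-test of edgeR, 53.9% of the genes tested differed between the 4 numbers, and 2 of the 4 tested members were among them. Ifitm2 averaged 251, 268, 393 and 238 CPM over the libraries numbered 1 to 4 (adjusted p = 0.00569), with the highest level in number 3. Without number 3 it was not called. Ifitm3 averaged 40.7, 64.1, 49.6 and 35.1 CPM (adjusted p = 0.00666), with the highest level in number 2. Ifitm1 averaged 1524, 1773, 2132 and 1535 CPM and was not called (adjusted p = 0.119), and neither was Ifitm10 (adjusted p = 0.437). The numbers spanned 0.52 on the log2 scale for Ifitm1, 0.72 for Ifitm2, 0.87 for Ifitm3 and 0.93 for Ifitm10, against a median of 0.87 over all genes tested. The spread between numbers was thus at or below that of the median gene for Ifitm1, Ifitm2 and Ifitm3 and above it for Ifitm10.

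Over the 8 libraries, Pearson's r of log2 CPM was 0.837 between Ifitm1 and Ifitm2, 0.566 between Ifitm1 and Ifitm3 and 0.486 between Ifitm2 and Ifitm3. The libraries share groups and numbers, so these values describe the data only. Of 11984 genes that averaged 1 CPM or more, those with the pattern most like Ifitm1 were Lancl1 (r = 0.961), E130317F20Rik (r = 0.960) and the transporter gene Abcg2 (r = 0.948). The pattern of Ifitm2 was most like those of Picalm, which encodes a clathrin assembly protein (r = 0.974), Acsl4 (r = 0.969) and Snhg17 (r = 0.968). That of Ifitm3 was most like those of Dbn1 (r = 0.966), the interferon-stimulated kinase gene Cmpk2 (r = 0.957) and Gm49883 (r = 0.955). No member of the family was among the 3 genes most like another.

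The genes that act before and beside the Ifitm genes were examined through lists. Of the 17 genes of interferon signalling (receptors, Janus kinases, STAT and IRF factors), 17 were tested and 0 were called by the quasi-likelihood test of edgeR, with 6 at an unadjusted p under 0.05, a level reached by 22.5% of all genes tested. DESeq2 called Il10rb (log2 fold change 0.47) and Irf3 (0.27) as higher, and limma-voom 0. Il10rb was also called under both alternative filters on low counts, and Ifngr2 with at least 1 count in any library. Their median log2 fold change was 0.18, against -0.00127 over all genes tested. The 3 most abundant ones were the kinase genes Jak1 (310 to 411 CPM in Mettl3-RNP and 310 to 425 CPM in Pulsed cells), Jak2 and Tyk2.

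Of 48 other interferon-stimulated genes, 36 were tested, and edgeR called 0 as higher and 2 as lower, with 8 at an unadjusted p under 0.05 and a median log2 fold change of -0.08. DESeq2 called 1 as higher and 3 as lower, and limma-voom 0 and 2. Over all genes tested edgeR called 3.74% and DESeq2 9.7%, and 22.5% had an unadjusted p under 0.05 by edgeR, so that no count is read as particular to the list. Ly6e encodes a GPI-anchored surface protein, and it was the most abundant gene of the list. It was at 359, 475, 324 and 428 CPM in Mettl3-RNP 1 to 4 and at 846, 830, 628 and 593 CPM in Pulsed 1 to 4. Ly6e fell in 4 of 4 pairs with no overlap of the groups (log2 fold change -0.87, SE 0.118, adjusted p = 0.0165). Lgals3bp, which encodes a secreted glycoprotein, was at 63.4, 43.9, 66.2 and 46.7 CPM against 94.4, 62.0, 113 and 52.4 CPM. It also fell in 4 of 4 pairs (log2 fold change -0.51, SE 0.10, adjusted p = 0.0374), but the groups overlapped. Without pair 2 the adjusted p was 0.0709 for Ly6e and 0.138 for Lgals3bp, and Lgals3bp was also not called without pair 1 or pair 3 (adjusted p = 0.0809 and 0.0684). Samhd1, a nucleotide hydrolase gene and the second in abundance, lay below the control in 4 of 4 pairs (log2 fold change -0.39, adjusted p = 0.0775 by edgeR) and was called as lower by DESeq2. Adar, which encodes an RNA-editing enzyme, went the other way, at 51.9 ± 5.50 and 41.5 ± 4.66 CPM (SD, n = 4) and above the control in 4 of 4 pairs (log2 fold change 0.32, adjusted p = 0.0625). It was called as higher by DESeq2, with scaling to total counts and with at least 10 counts in every library.

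**Figure D3:**
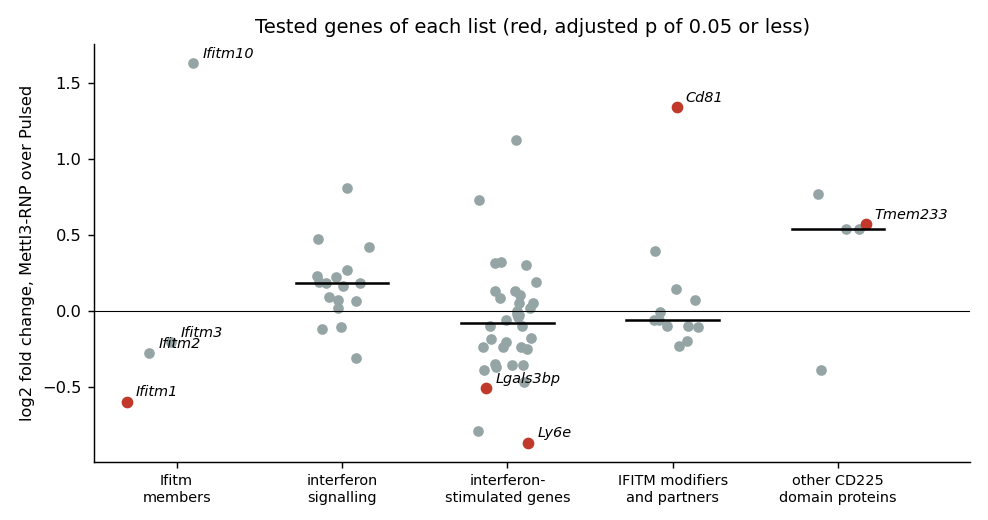
Log2 fold change of the tested genes of the Ifitm family and of 4 lists, with a black line for the median of each of the 4 lists and red points for genes called by edgeR. Among the interferon-stimulated genes Ly6e and Lgals3bp lie below 0, whereas Cd81 and Tmem233 lie above 0 and edgeR calls no gene of interferon signalling (DESeq2 calls Il10rb and Irf3).

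Of 12 genes for modifiers and partners of Ifitm proteins, 12 were tested and edgeR called 1, as higher, with 4 at an unadjusted p under 0.05, against 3.74% and 22.5% of all genes tested. DESeq2 called Cd81 and the kinase gene Fyn (log2 fold change 0.39, SE 0.113, above the control in 4 of 4 pairs), and limma-voom Cd81. Cd81 encodes a tetraspanin found in a surface complex with Ifitm1. It was at 11.7, 45.4, 38.6 and 31.8 CPM in Mettl3-RNP 1 to 4 and at 6.12, 11.4, 24.5 and 9.22 CPM in Pulsed 1 to 4. Cd81 rose in 4 of 4 pairs (log2 fold change 1.34, SE 0.222, adjusted p = 0.0258), and the groups overlapped through Mettl3-RNP 1 and Pulsed 3. Cd9, a related tetraspanin, was at 604 ± 63.2 and 654 ± 96.7 CPM (SD, n = 4). The ubiquitin ligase gene Nedd4 was at 955 ± 185 and 910 ± 179 CPM, and the methyltransferase gene Setd7 at 365 ± 74.7 and 375 ± 32.9 CPM. None of these 3 genes was called by edgeR or DESeq2. The palmitoyltransferase gene Zdhhc20, whose enzyme acylates Ifitm3, had a log2 fold change of -0.01 (SE 0.0659).

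Of 7 other genes with a CD225 domain, 5 were tested and edgeR, DESeq2 and limma-voom each called 1, Tmem233, as higher. An unadjusted p under 0.05 by edgeR was found for 1 of the 5, against 22.5% of all genes tested. The shares called over all genes tested were 3.74% for edgeR and 9.7% for DESeq2, so no count is read as particular to this list. Tmem233 was at 115, 80.9, 54.8 and 127 CPM in Mettl3-RNP 1 to 4 and at 90.7, 60.4, 27.0 and 88.9 CPM in Pulsed 1 to 4. It rose in 4 of 4 pairs (log2 fold change 0.57, SE 0.113, adjusted p = 0.0374) while the groups overlapped. The other tested genes of this list were scarce, and of these Prrt1 and Prrt2 were the most abundant, with means of 1.08 and 0.830 CPM over the 8 libraries. Without pair 2 the adjusted p was 0.0966 for Cd81 and 0.121 for Tmem233, and Tmem233 was also not called without pair 1 or pair 4 (adjusted p = 0.0784 and 0.0607). Without the replicate block 0 genes of any of these lists were called.

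The genes around the members were examined next. Within 100 kb of a member of the chromosome 7 cluster lay 21 other genes, of which 9 were tested and 0 were called by edgeR. An unadjusted p under 0.05 was found for 1 of the 9, and DESeq2 and limma-voom called 0. The log2 fold changes lay between -0.69 and 0.12. Of all genes tested, edgeR called 3.74% and DESeq2 9.7%, and 22.5% had an unadjusted p under 0.05 by edgeR. The counts of calls around the members are therefore not read as a result about their neighbours. Pgghg, which starts 14.9 kb from Ifitm2, had a log2 fold change of 0.01 (SE 0.0871). The lowest value was that of Nlrp6, an inflammasome gene at 1.10 ± 1.15 and 1.89 ± 2.02 CPM (SD, n = 4), with an SE of 0.293. The others were Sirt3, Psmd13, Gm15542, Bet1l, Ric8a, Pkp3 and Sigirr. Ifitm5, a further family gene in the cluster known from bone, had 19, 59, 46 and 16 counts in Mettl3-RNP 1 to 4 and 36, 41, 97 and 28 counts in Pulsed 1 to 4, and it was not called (log2 fold change -0.49, SE 0.349).

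**Figure D4:**
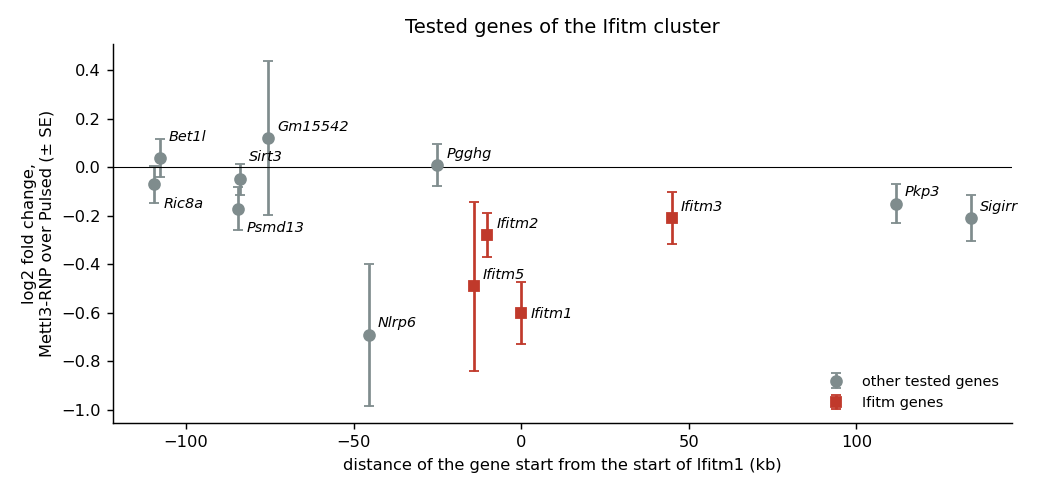
Log2 fold change with its SE of the tested genes around the chromosome 7 cluster, plotted by the distance of their start from that of Ifitm1 in kb. The Ifitm genes (red) lie between -0.21 and -0.60, and the 9 other genes (grey) between -0.69 and 0.12, with wide errors for Nlrp6 and Gm15542.

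Next to Ifitm10, 1 of 16 genes within 100 kb was tested. This was Ctsd, which encodes the lysosomal protease cathepsin D and starts 14.2 kb upstream of Ifitm10 on the same strand. Ctsd was at 1204, 2005, 1827 and 1999 CPM in Mettl3-RNP 1 to 4 and at 1076, 1080, 1040 and 1163 CPM in Pulsed 1 to 4. It rose in 4 of 4 pairs with no overlap of the groups (log2 fold change 0.66, SE 0.123, adjusted p = 0.0326). Near Ifitm7, 2 of 8 genes were tested. Mpv17l, which encodes a membrane protein of peroxisomes and mitochondria, rose from 2.76 ± 1.35 to 6.04 ± 2.78 CPM (log2 fold change 1.11, SE 0.209, adjusted p = 0.0334), whereas Pdxdc1 was not called. The call of Ctsd was lost without pair 2 or pair 3 (adjusted p = 0.139 and 0.0763), and that of Mpv17l without pair 1 or pair 2 (adjusted p = 0.0531 and 0.14).

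Close copies and overlapping genes limit what the counts of the members can say, as the strand and multimapping settings are not given in the sources used here. Of the stretches of 50 bases in the canonical transcripts, 23.8% for Ifitm1, 17.0% for Ifitm2, 5.13% for Ifitm3 and 12.2% for Ifitm7 occurred elsewhere in the genome, and none for Ifitm6 and Ifitm10. Ifitm1 shared 15 and Ifitm2 20 such stretches with Ifitm3, each about 2% of its own (2.15% and 2.13%). The pseudogene Gm7676, which shares stretches with Ifitm1, had 12 to 42 counts, against 35224 to 106775 for Ifitm1. Of the stretches of Ifitm2, 31.3% occurred in annotated transcripts of other genes, among them Gm45717 and Glce, and Glce had 216 to 511 counts against 7180 to 18514 for Ifitm2. The exons of Ifitm3 overlapped by 60.9% with the antisense lncRNA Gm57251 (0 to 2 counts), and those of Ifitm2 by 26.8% with Gm45717 on the same strand (0 counts). Ifitm10 shared 3.04% of its exon bases and 5% of its stretches with Gm49369 on the same strand (0 to 2 counts). Without strand, reads of Ifitm3 and of its antisense partner cannot be told apart. How reads in shared stretches were counted is not known, and some may be missing from Ifitm2 and Ifitm3. The low counts of the partners do not settle this. The levels per kb compared between members have the same limit.

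GGACT, the most frequent sequence context of m6A, occurred 3 times in the canonical transcript of Ifitm1 (4.02 per kb) and 3 times in that of Ifitm10 (0.879 per kb). It was absent from those of Ifitm2 and Ifitm3. The median over genes tested was 1.02 per kb, and 11.2% of them had no such motif. The motif counts do not show where m6A was present.

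Because Ifitm genes are also expressed in other blood cells, markers of these were examined. For comparison, edgeR called 3.74% and DESeq2 9.7% of all genes tested, and 22.5% had an unadjusted p under 0.05 by edgeR. No count of calls below is therefore read as particular to a cell type. The 10 mast cell markers were all tested, with summed levels of 46035 to 62458 CPM in Mettl3-RNP and 49791 to 68168 CPM in Pulsed libraries, and 1 of them, the protease gene Cpa3, was called, as lower (log2 fold change -0.37, adjusted p = 0.0328). The median log2 fold change of the mast cell markers was 0.10, with 4 of 10 fitted lower, and Mitf (0.30) and Il1rl1 (0.24) lay above the control in 4 of 4 pairs without a call by edgeR. DESeq2 called Cpa3 as lower and Mitf and Il1rl1 as higher, and limma-voom called Cpa3. Of the 11 neutrophil markers, 5 had 0 counts in every library (S100a8, S100a9, Elane, Camp and Retnlg), and the summed level was 0.0854 to 0.726 CPM against 0.574 to 0.985 CPM. The neutrophil marker that was tested, Mmp8, was not called. Of the 6 basophil markers 5 were tested, with a median log2 fold change of -0.42, and Il18rap was called as lower (log2 fold change -0.79, adjusted p = 0.0324), also by DESeq2 and limma-voom. Cd200r3 lay above the control in 4 of 4 pairs (log2 fold change 0.25) and was called as higher by DESeq2 but not by edgeR or limma-voom. The summed level of the basophil markers, mostly Cd200r3, was 540 to 858 CPM against 566 to 683 CPM. Of the 11 monocyte and macrophage markers 6 were tested and Adgre1 was called as lower (log2 fold change -1.13, adjusted p = 0.0435), from 2.53 ± 0.443 to 1.17 ± 0.369 CPM (SD, n = 4). Cd68, which is more abundant, was at 16.7 ± 11.3 CPM in the Mettl3-RNP and 4.49 ± 1.62 CPM in the Pulsed group (SD, n = 4) and was not called (log2 fold change 1.63, SE 0.569, adjusted p = 0.142), with pair differences of -0.43, 2.89, 0.75 and 3.10. Of these 6 markers 3 were fitted lower, the median log2 fold change was -0.22, and DESeq2 and limma-voom each called Adgre1 alone. The summed level of the 11 monocyte and macrophage markers, mostly Cx3cr1 (136 to 403 against 61 to 383 CPM), was 156 to 411 CPM against 78.2 to 400 CPM. Lyz2 averaged 5.42 and 5.16 CPM and Csf1r 0.172 and 0.139 CPM in the Mettl3-RNP and Pulsed groups. Of the 8 progenitor, 4 eosinophil, 6 erythroid and 6 lymphocyte markers, 7, 2, 3 and 2 were tested and 0 were called by edgeR, with 2, 2, 1 and 1 at an unadjusted p under 0.05, and DESeq2 called the progenitor marker Erg as higher and the erythroid marker Hba-a1 as lower and limma-voom 0. The edgeR call of Adgre1 was lost whichever pair was left out and with scaling to total counts (adjusted p = 0.0504). That of Cpa3 was lost without pair 2, 3 or 4 and with at least 10 counts in every library (adjusted p = 0.0583). Il18rap was not called without pair 1, 2 or 3. Without pair 2 the adjusted p was 0.159 for Cpa3, 0.106 for Il18rap and 0.106 for Adgre1. The part of these cells in the Ifitm1 difference was not tested.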

How the data were processed

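The authors isolated poly-A RNA from BMMCs and sequenced paired reads of 50 bases. Alignment to GRCm39 used HISAT2 2.2.1, counting by Ensembl gene used featureCounts 2.0.1 and quality control FastQC 0.11.9, as the submitters' processing notes and the methods state. The deposited values are whole-number counts without normalization, 1 table per library. The methods also name a batch correction, which is not visible in the counts, and the batch is not named. GENCODE release M39 (GRCm39) named 56017 of 56748 IDs (98.7%), and unnamed IDs held at most 0.113% of a library.

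Genes were kept by filterByExpr (about 10 counts in 4 libraries, 14942 genes) and scaled by TMM, a trimmed mean of log ratios. The quasi-likelihood test of edgeR 4.0.16 (R 4.3.3) was run on group with replicate number as blocking factor, with Benjamini-Hochberg adjustment over all genes tested and a call at an adjusted p of 0.05 or less. Standard errors were derived from the test statistic. Replicate numbers were compared with an F-test of their 3 coefficients. CPM used TMM library sizes, and log2 CPM a prior count of 2. Alternatives used DESeq2 1.42.0 and limma 3.58.1.

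Same-numbered libraries deviated together from their group means (correlations over genes of 0.825, 0.489, 0.879 and 0.765, against at most 0.183 for different numbers). The series text names 4 mice behind the 8 samples, from which the link of a number to a mouse was inferred. The smallest chi-square between 2 libraries of one group was 52.6 per degree of freedom, so none was a duplicate within sampling noise. Counting limits cover counting error only, as the reads have no molecular identifiers.

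The members and lists were chosen with earlier results of these data known. The text names Mettl3, the Ifitm genes, genes of the lists that were called or among the 3 most abundant, tested genes within 100 kb of a member, and the 3 genes most like each member with a mean of at least 1 CPM. Adar, Fyn, Il10rb, Irf3, Ifngr2, Zdhhc20, the marker genes, the pseudogene and Gm49369 were added to the names once values were known.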

Additional observations from a re-analysis of the deposited data

Results flagged for a closer look

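In groups of 4 libraries of the members tested, Mettl3 and the called genes of the lists and neighbours, a library was marked when its gap to the nearest other was too large a part of the range of the group by Dixon's test. Of 22 groups examined, 2 were marked, and chance marks about 1 in 20, or 1.1 here. Both concerned Pulsed 3. Ifitm2 was at 460 CPM there, against 264 to 273 CPM in the other Pulsed libraries. Mettl3 was at 11.1 CPM, against 24.5 to 26.5 CPM in the others. Mettl3-RNP 3 held the highest Ifitm2 and the lowest Mettl3 level of its own group.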

How the results depend on the processing

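The numbers of calls depended on the processing, and the cause was not tested. Without the replicate block (edgeR) 0 of 14942 genes, 0 members, 0 interferon-stimulated genes and 0 genes of the lists of interferon signalling, modifiers and CD225 proteins were called, although 579, 2, 1 and 1 of them had an unadjusted p under 0.05 in that fit. With the block edgeR called 559, 1, 2 and 2 (3357, 3, 8 and 11 at an unadjusted p under 0.05), and the Wald test of DESeq2 called 1449, 2, 4 and 5. With at least 1 count in any library 993 genes, 2 members and 4 genes of the latter lists were called, and with at least 10 counts in every library 959 genes and 2 members. The added member was Ifitm10, also under DESeq2, and its log2 fold change stayed between 1.22 and 1.82 over 11 alternatives. With scaling to total counts 0 members were called, as the adjusted p of Ifitm1 was 0.0561. Leaving out 1 pair of libraries gave 26 to 383 genes (26 without pair 2), 0 to 1 members, 0 to 2 interferon-stimulated genes and 0 to 2 genes of the latter lists. Between replicate numbers it gave 4053 to 7910 genes (5235 without number 1, 4053 without number 3) and 1 to 2 members. Ifitm1 was called under 6 of 11 alternatives, with a log2 fold change between -0.74 and -0.44. The fold changes of the 4 tested members kept their sign under all 11 alternatives. The alternatives for the lists of interferon signalling, modifiers and CD225 proteins were added after the data had been seen. Ifitm6 and Ifitm7 are limited by depth.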
